A study of Zea mays with 6 samples.

Results

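In immature maize anthers, 178 genes stood at higher levels in both libraries numbered 3, one from mop1 mutants and one from wild-type siblings, than in the 4 libraries numbered 1 and 2. They were chosen by their measured values, from 39756 gene IDs in the deposited table. A gene was taken where its value in mop1 replicate 3 was at least 2 times the highest value among mop1 replicates 1 and 2 and WT replicates 1 and 2, where WT replicate 3 also lay above that highest value, and where the mean over the 6 libraries was at least 100 normalized counts. The IDs from Zm00001eb078500 to Zm00001eb082500 were left out. A normalized count is a read count divided by 1 factor per library, so that libraries of different depth can be compared. The group therefore crosses genotype, and its rise in the libraries numbered 3 is what the rule asked for, not a result.

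The study profiled total RNA of immature anthers whose meiocytes were in meiosis I, with meiocytes given as the cell type. The mutant group was homozygous for mop1 (Mo17/B73;mop1/mop1) and the control group consisted of wild-type siblings (Mo17/B73;+/+), both in a hybrid of the inbred lines Mo17 and B73, with 3 libraries each. The labels do not say whether replicates were separate plants, and give neither an anther length nor a meiotic substage nor a collection day for any library. The p-values below hence reflect the scatter of these libraries, part or all of which may be technical.

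An anther in meiosis holds meiocytes inside several layers of wall cells. The innermost of these, the tapetum, feeds the meiocytes and later the young pollen. Transcript levels in whole anthers are known to shift as meiocytes pass through the stages of prophase I and as the tapetum matures, so that libraries of nearby stages can differ at many genes. The gene mop1 (mediator of paramutation1) encodes an RNA-dependent RNA polymerase that makes double-stranded RNA for the small RNAs of RNA-directed DNA methylation, a pathway that keeps transposons near genes methylated.

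The table pairs no ID with a gene name, and 0 of the 39756 IDs matched the 49888 genes of the reference table used here. Roles, sequences and positions of the 178 genes, the lists of tapetum, meiosis, pollen and green tissue markers, and the transcript of mop1 itself were therefore not analysed here. The labelled tissue and cell type could not be set against markers for the same reason. In bulk tissue, fewer cells of a type and less RNA per cell cannot be told apart.

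All 178 genes rest on the library mop1 replicate 3, which the rule needs. Over the 23150 genes tested further on, its highest Pearson correlation with any other library, 0.91 with WT replicate 3, was below the highest of each other library, which lay at 0.96 or 0.97. These values describe the libraries across genes, which are not independent replicates. Recovered reads per library ranged from 22635163 to 26531475, with the highest number in mop1 replicate 3. At genes with a mean of at least 100, outside the omitted IDs, the median log2 ratio to the mean of the 4 libraries numbered 1 and 2 was 0.08 for mop1 replicate 3 and 0.03 for WT replicate 3. The corresponding medians for the 178 genes were 1.48 and 0.73. Without either library numbered 3 the rule cannot be applied, and the comparison of genotypes further on is given without both.

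Of 17593 genes with a mean of at least 100, 220 met the first condition, a value in mop1 replicate 3 of at least 2 times the highest of the 4. WT replicate 3 was also above that highest value at 180 of them, or 81.8%. Over all 17593 genes it was so at 4855, or 27.6%. The same highest value enters both conditions, so the shares are given as a description. Removal of 2 genes in the omitted range of IDs left the 178, which were 1.02% of the 17432 remaining genes. The same rule turned around, with mop1 replicate 3 at or below 0.5 times the lowest of the 4 and WT replicate 3 below it, took 467 genes, or 2.68%.

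The levels of the 178 genes overlapped widely between libraries, because the genes themselves ranged from low to high. Their median level was 1088 normalized counts in mop1 replicate 3 and 611 in WT replicate 3. Mop1 replicates 1 and 2 had medians of 364 and 397, while those of WT replicates 1 and 2 were 436 and 339. The 4 libraries numbered 1 and 2 thus had medians close to one another, with WT replicate 1 the highest of them. Summed over the 178 genes, the share of all normalized counts was 1.75% in mop1 replicate 3 and 0.968% in WT replicate 3. In the other libraries the share lay between 0.548% in WT replicate 2 and 0.631% in mop1 replicate 2.

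**Figure D1:**
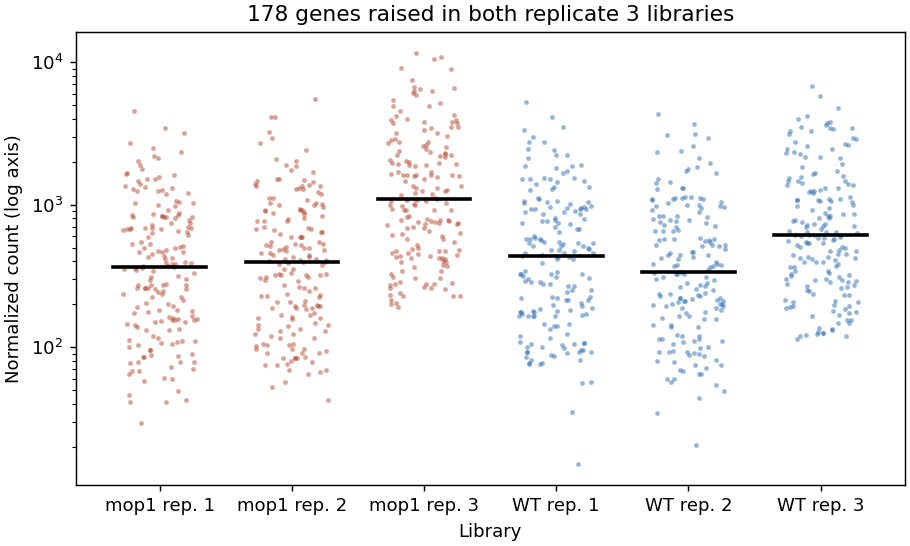
Normalized counts of the 178 genes (vertical log axis) in each of the 6 libraries. Each point is 1 gene and each bar is the median over genes. The median is 1088 in mop1 replicate 3, 611 in WT replicate 3 and between 339 and 436 in the other libraries.

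The rule asks for a mean of at least 100 normalized counts, so genes with a lower mean could not enter. Values in the libraries numbered 3 count toward that mean. The group's medians in mop1 replicates 1 and 2 were 364 and 397, against 587 and 582 for all genes with such a mean. In WT replicates 1 and 2 they were 436 and 339, against 604 and 597. In replicate 3, which the rule set high, they were 1088 against 596 in mop1 and 611 against 610 in WT. Means of the group's genes over the 6 libraries ranged from 103 to 6361 normalized counts, with a median of 538. There were 31 genes with a mean under 200, 52 from 200 to under 500, 39 from 500 to under 1000, and 56 at 1000 or more. The most abundant gene had 4519 normalized counts in mop1 replicate 1, 5560 in mop1 replicate 2 and 11649 in mop1 replicate 3, and 5268, 4342 and 6828 in WT replicates 1 to 3. Its WT mean was the 351st highest in the table, so the group held none of the 350 most abundant WT transcripts. The gene with the lowest mean had 29.5, 42.5 and 205 normalized counts in the mop1 libraries, in the order of their numbers, and 95.2, 48.9 and 195 in the WT libraries. At this gene the libraries numbered 3 were nearly level with each other.

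Depth was sufficient to place mop1 replicate 3 above the 4 at every gene. The smallest number of reads behind any of the 178 genes was 261 in mop1 replicate 3, 142 in WT replicate 3 and 19 among the other libraries. The ratio of mop1 replicate 3 to the highest of the 4 had an exact 95% counting interval wholly above 1 at all 178 genes, and wholly at or above 2 at 108 of them. For WT replicate 3 the interval lay wholly above 1 at 144 genes. The other 34 could not be placed above the highest of the 4 by their reads alone. These intervals cover counting error only, and since the libraries were required to be high, they are not tests.

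The rise was modest at most genes and large at few. The ratio of mop1 replicate 3 to the highest of the 4 had a median of 2.29, with quartiles of 2.14 and 2.59 and a maximum of 5.63. It reached 3 at 29 genes, 4 at 7 and 5 at 3. For WT replicate 3 the ratio had a median of 1.32, with quartiles of 1.17 and 1.60 and a maximum of 3.18. It was under 1.1 at 23 genes and reached 1.5 at 53. The group thus reaches down to the limit of the rule in both libraries, without a gap there.

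**Figure D2:**
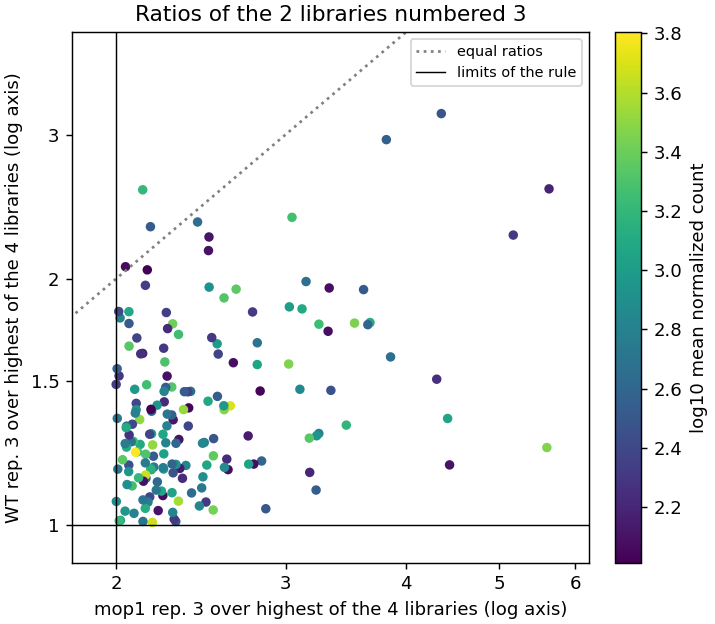
Ratio of mop1 replicate 3 (horizontal) and of WT replicate 3 (vertical) to the highest of the 4 libraries numbered 1 and 2, both on log axes. Each point is 1 of 178 genes, shaded by log10 of its mean normalized count. Solid lines mark the limits of the rule at 2 and 1, the dotted line marks equal ratios, and 3 genes lie on or above it.

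Genes at the limit looked like their neighbours on the other side. The gene nearest to it inside had 398 normalized counts in mop1 replicate 3 against 199 in WT replicate 2, the highest of the 4, and 296 in WT replicate 3. The nearest outside had 676 in mop1 replicate 3 against 339 in WT replicate 1, with 484 in WT replicate 3. There were 34 genes of the group with a ratio from 2 to under 2.1, and 57 genes not in it with a ratio from 1.9 to under 2 that met the other conditions. The limit cuts through a continuous run of values.

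WT replicate 3 lay between the 4 libraries and mop1 replicate 3 at nearly all of the genes. On the log2 scale, with the mean of the 4 at 0 and mop1 replicate 3 at 1, its median position was 0.466, and its quartiles were 0.325 and 0.600. It lay at or above mop1 replicate 3 at 3 genes. One of these had 192 normalized counts in WT replicate 3 and 190 in mop1 replicate 3, against 54.0 to 92.8 in the 4. Another had 3316 against 2752, with 694 to 1291 in the 4. The third had 585 against 549, with 149 to 253 in the 4. Within genotype, mop1 replicate 3 was a median of 2.95 times the mean of mop1 replicates 1 and 2, and WT replicate 3 was 1.61 times the mean of WT replicates 1 and 2. The ratio within mop1 was the larger at 174 of the 178 genes. The rule asks for a larger rise in mop1 replicate 3, so this order is not evidence on genotype.

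A subset of 12 genes was at least 2 times the highest of the 4 in both libraries numbered 3. Their means ranged from 103 to 1846 normalized counts with a median of 256, and their ratios in mop1 replicate 3 from 2.05 to 5.63. The gene with the largest ratio in WT replicate 3, 3.18, had 149, 90.5 and 739 normalized counts in the mop1 libraries and 170, 143 and 540 in the WT libraries. Here both libraries numbered 3 stood well clear of the rest. Across the 178 genes, the log2 ratios in the libraries numbered 3 correlated at 0.37 (Pearson) and 0.26 (Spearman). The genes share their libraries, and both ratios share their denominator, so this is a description only. Median ratios showed no steady trend with abundance in WT replicate 3, where they were 1.39, 1.46, 1.19 and 1.29 from the least to the most abundant of the 4 classes above. In mop1 replicate 3 the medians of these classes were 2.34, 2.30, 2.24 and 2.25.

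The gene Zm00001eb313660 had the largest ratio in mop1 replicate 3, 5.63. Its normalized counts were 45.8, 80.4 and 453 in the mop1 libraries and 76.1, 60.0 and 207 in the WT libraries. Both libraries numbered 3 were above all the others, with mop1 replicate 3 more than WT replicate 3. The gene Zm00001eb212800 had the next largest ratio, 5.60, with 1890, 1434 and 10590.0 normalized counts in the mop1 libraries and 809, 339 and 2351 in the WT libraries. Here WT replicate 3 was only 1.24 times mop1 replicate 1, and each mop1 library lay above WT replicates 1 and 2. These genes are given by ID because the files do not pair them with names.

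**Figure D3:**
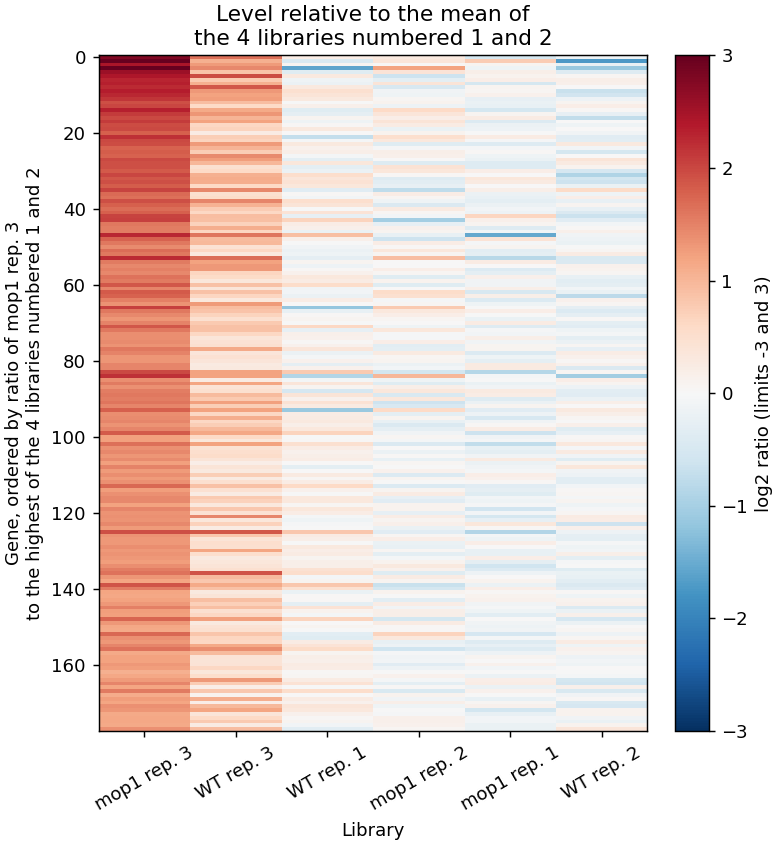
Level of each of the 178 genes (rows, ordered by the ratio of mop1 replicate 3 to the highest of the 4 libraries numbered 1 and 2) in each library (columns), as the log2 ratio to the mean of those 4. The columns of mop1 replicate 3 and WT replicate 3 have medians of 1.48 and 0.73, which the rule set. The other columns centre near 0 because each gene is divided by the mean of those 4, although single genes can lie away from it.

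The rule treats the 4 libraries numbered 1 and 2 alike and sets no order among them, although it selects against genes at which any of them lies far above the rest. WT replicate 1 came next after the libraries numbered 3 more often than any other library. It was the highest of the 4 at 82 genes, or 46.1%, against 28.4% of all 17432 genes with a mean of at least 100. It was the lowest of the 4 at 18, or 10.1%, against 16.3%. Mop1 replicate 2 was the highest at 55 genes, or 30.9%, and over all genes at 4352 of the 17432. Mop1 replicate 1 and WT replicate 2 were the highest at 21 and 20 genes, 11.8% and 11.2%, against 18.2% and 28.5%. The 4 shares cannot be compared by a test over libraries, since each library is a single sample.

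The counterpart genes showed the opposite order for WT replicate 1. At the 467 genes lowered in both libraries numbered 3, WT replicate 1 was the lowest of the 4 at 32.6% and the highest at 7.07%. Its median log2 ratio to the mean of the 4 was -0.29 there, 0.12 at the 178 raised genes and 0.03 over all genes. Thus WT replicate 1 lay toward the libraries numbered 3 in both groups of genes. Over the 23150 tested genes its highest Pearson correlation, 0.97, was also with WT replicate 3. Its likeness to WT replicate 3 was therefore not particular to these groups. Mop1 replicate 2 lay toward the libraries numbered 3 in the raised genes, with a median of 0.03 against -0.04 over all genes. In the lowered genes the median of mop1 replicate 2 was 0.04. After TMM and quantile scaling, WT replicate 1 was the highest of the 4 at 39.3% and 41.0% of the 178 genes, and at 23.9% and 22.9% of all genes. Mop1 replicate 2 then followed it closely, as the highest at 37.6% and 37.1% of the 178, against 28.9% and 28.3% of all genes. Among the 29 genes at 3 times or more in mop1 replicate 3, mop1 replicate 2 was the highest of the 4 at 14 and WT replicate 1 at 9. Anther stage, which the labels do not give, was not tested.

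**Figure D4:**
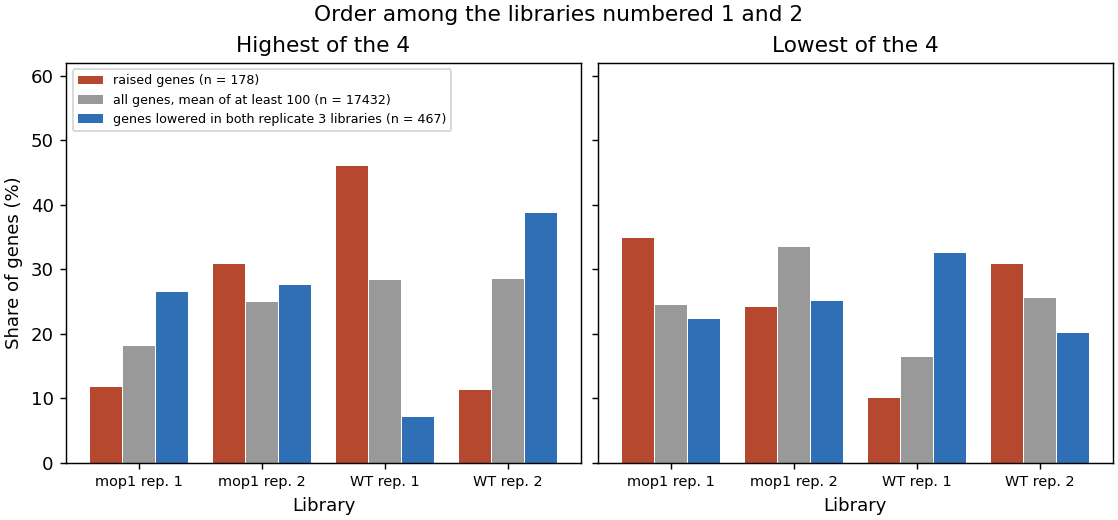
Share of genes (vertical axis, %) at which each of the 4 libraries numbered 1 and 2 was the highest (left) or the lowest (right) of the 4. Bars stand for the 178 raised genes, all 17432 genes with a mean of at least 100 and the 467 lowered genes. WT replicate 1 is the highest at 46.1% of the raised and 7.07% of the lowered genes.

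The order of all 6 libraries varied from gene to gene. The 178 genes showed 27 different orders, and the commonest was shared by 18 genes. In that order mop1 replicate 3 came first, then WT replicate 3, WT replicate 1, mop1 replicate 1, WT replicate 2 and mop1 replicate 2. Among the 4 libraries numbered 1 and 2 the genes were about as steady as others. Their median coefficient of variation over these 4 was 18.4%, against 16.6% for all genes with a mean of at least 100. The highest of the 4 was at least 2 times the lowest at 30 genes, or 16.9%, against 18.2% of all genes. At the 467 lowered genes the same holds for 51.2%, with a median coefficient of variation of 33.0%. The rule draws on the highest of the 4 for the raised genes and on the lowest for the lowered ones, so these spreads are a description, and their difference was not tested.

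The study's question, which transcripts differ between mop1 and WT anthers, was put to the 178 genes in the 4 libraries numbered 1 and 2. The rule treats these 4 alike, but it asks for 2 times their highest value in mop1 replicate 3. In WT replicate 3 it asks only for a value above that highest value. It is therefore not balanced between genotypes, and nothing is read from the split of directions below. A wide gap between genotypes also raises the highest value of the 4. The rule thus selects against genes with a large difference in either direction. The counts and shares that follow are therefore a description of the 178 genes, and nothing is read from a lower share than over all genes. With 2 libraries per genotype, limma on log2(normalized count + 1) called 141 of 23150 tested genes at an adjusted p of 0.05, or 0.609%, and 0 of the 178. edgeR on recovered reads called 80 genes, or 0.346%, and also 0 of the 178. DESeq2 called 1328 genes, or 5.74%, and 5 of the 178, or 2.81%. Of these 5, 4 were higher and 1 lower in mop1, directions called at 4.21% and 1.52% of all tested genes. On leaving out 1 library, limma called 559 genes in the absence of mop1 replicate 1 and 10 in that of mop1 replicate 2. It called 278 in the absence of WT replicate 1 and 92 in that of WT replicate 2. Of the 178 genes, 1 passed by limma when WT replicate 1 was left out and 0 when any of the others was.

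At an unadjusted p under 0.05, limma gave 17 of the 178 genes, or 9.55%, with 10 higher and 7 lower in mop1. The shares over all tested genes were 16.5% in either direction, 7.88% higher and 8.61% lower. Values of mop1 replicates 1 and 2 did not overlap those of WT replicates 1 and 2 at 54 of the 178 genes, or 30.3%, against 51.0% of all tested genes. Of these, 23 were higher and 31 lower in mop1, directions held by 21.3% and 29.7% of all tested genes. The median log2 difference between mop1 and WT was -0.08 for the 178 genes, with quartiles of -0.22 and 0.11, and -0.06 over all tested genes, with quartiles of -0.34 and 0.23. The estimate reached 2-fold in either direction at 6 of the 178, or 3.37%, while 11.2% of all tested genes reached it. At 120 of them, or 67.4%, the difference had a 95% interval inside 2-fold on both sides, against 54.1% of the genes tested. Over the 17429 tested genes with a mean of at least 100, outside the omitted IDs, the quartiles of the log2 difference were -0.31 and 0.18, still wider than those of the 178. The choice of genes by the highest of the 4 bears on all of these shares, and its part in them was not tested.

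**Figure D5:**
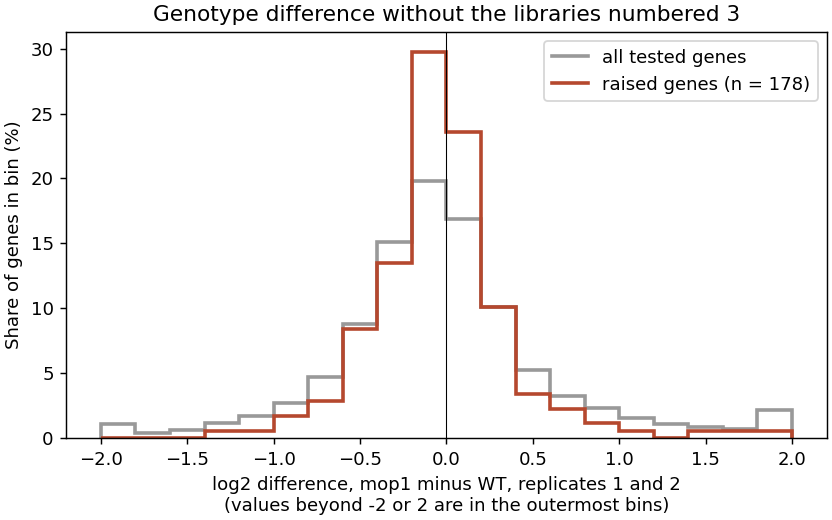
Share of genes (vertical axis, %) by log2 difference between mop1 and WT in replicates 1 and 2 (horizontal axis, bins of 0.2), for the 178 raised genes and for all 23150 tested genes. The medians are -0.08 and -0.06. A 2-fold difference is reached by 6 of the 178 genes, or 3.37%, against 11.2% of all tested genes. The rule selects against large differences among these libraries, so the narrower spread is not read as a result.

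The 2 genes lower in mop1 with the lowest p in these 4 libraries are Zm00001eb069640 and Zm00001eb239680. Zm00001eb069640 had 1356 and 1354 normalized counts in mop1 replicates 1 and 2, and 2224 and 2136 in WT replicates 1 and 2. It had 6720 in mop1 replicate 3 and 3499 in WT replicate 3. The order of the genotypes was thus the other way round in the libraries numbered 3. The rule asks for a larger rise in mop1 replicate 3, so this turn is not evidence on genotype. The log2 difference of Zm00001eb069640 in replicates 1 and 2 was -0.69 (SE 0.15, limma adjusted p = 0.13). DESeq2 gave an adjusted p of 0.022 on recovered reads, and the highest value under any alternative was 0.40, without WT replicate 2.

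Zm00001eb239680 had 79.2 and 97.4 normalized counts in mop1 replicates 1 and 2, and 184 and 165 in WT replicates 1 and 2. It had 412 in mop1 replicate 3 and 303 in WT replicate 3. Its log2 difference in replicates 1 and 2 was -0.98 (SE 0.28, limma adjusted p = 0.18, and 0.12 to 0.47 under the alternatives). Zm00001eb212800, described above for its ratio, had means of 1662 ± 322 in mop1 and 574 ± 332 in WT over replicates 1 and 2 (SD, n = 2 each). Its log2 difference was 1.65 (SE 0.45, limma adjusted p = 0.20). The adjusted p fell to 0.0044 with DESeq2 and to 0.026 with limma when WT replicate 1 was left out, and reached 0.45 without mop1 replicate 2. Zm00001eb313660 had means of 63.1 ± 24.5 and 68.1 ± 11.4 (SD, n = 2 each), and its log2 difference was -0.15 (SE 0.41, limma adjusted p = 0.88). Thus in replicates 1 and 2, mop1 and WT overlapped at Zm00001eb313660 and did not overlap at Zm00001eb212800. Over all tested genes they did not overlap at 51.0%. With the libraries numbered 3, the genotypes overlapped at both genes.

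The remaining 3 genes called by DESeq2 were all higher in mop1 replicates 1 and 2. The first had 977 and 1028 normalized counts in mop1 replicates 1 and 2 against 569 and 650 in WT replicates 1 and 2, with an adjusted p of 0.016 by DESeq2. The next had 155 and 322 against 88.0 and 78.0, also at 0.016. The last had 671 and 799 against 461 and 458, at 0.043. In replicates 1 and 2 the genotypes did not overlap at any of the 3, which held for 51.0% of all tested genes. At the gene with 155 and 322 the mop1 replicates lay farther apart than the genotype means. By limma the adjusted p of the 3 genes was 0.13, 0.18 and 0.17, in the same order. WT replicate 3, with 1126, 373 and 1078 normalized counts, lay above mop1 replicates 1 and 2 at each, which the rule requires. These 3 genes were singled out after their values were seen.

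With all 6 libraries, limma called 5 of 23150 genes, or 0.0216%, and 0 of the 178, and no member had an unadjusted p under 0.05, which 10.4% of all tested genes had. edgeR called 0.013% of all genes and 0 of the 178, with an unadjusted p under 0.05 at 10.3% and at 0. DESeq2 called 445 genes, or 1.92%, and 0 of the 178, with an unadjusted p under 0.05 at 12.9% of all genes and at 4 of the 178. Nothing is read from these counts. The rule places a WT library above mop1 replicates 1 and 2 and a mop1 library above WT replicates 1 and 2, so the genotypes overlap at every gene it takes. The median log2 difference of the 178 genes was 0.23 with all libraries, 0.44 without WT replicate 3 and -0.27 without mop1 replicate 3. The rule sets both of these libraries high, so the turn of sign is not a result. The 5 calls over all genes became 50, 1 and 208 on leaving out mop1 replicates 1, 2 and 3 in turn, and 0 on leaving out any WT library.

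The 178 genes were spread over the whole range of IDs. With the table parted into 10 stretches of equal length, they numbered from 9 to 22 per stretch, which was 0.623% to 1.27% of the genes with a mean of at least 100 there. The median distance between consecutive members was 144 rows and the longest was 1421. A single pair stood in adjacent rows, and 14 genes had another member within 10 rows. Of 174 other genes with a mean of at least 100 in rows next to a member, mop1 replicate 3 lay above the highest of the 4 libraries at 73, or 42.0%. Over all such genes outside the group the share was 37.2%. Order of IDs is used here as it stands in the table, with no coordinates.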

How the data were processed

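RNA sequencing of 6 libraries, 3 from mop1 and 3 from WT anthers, was analysed. The file deposited by the authors holds a signal per gene, which the labels call normalized counts, each library having its own column. The submitters' processing notes name Trimmomatic 0.39, HISAT2, SAMtools, HTSeq and DESeq2. The sources used here do not give their roles, the build, the gene models or the use of strand. Reads of overlapping or near-identical genes may therefore be shared out in ways the table does not show. Dividing each column by its smallest value gave whole reads at 100% of values, to within 0.01.

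Genes with at least 10 normalized counts in at least 3 of 6 libraries were tested with limma 3.58.1 (R 4.3.3) on log2(value + 1), trended and robust, two-sided, with Benjamini-Hochberg adjustment over 23150 genes at 0.05. All 178 members passed this filter, each with at least 10 in every library. Fold changes on this scale understate those of low genes. Alternatives were edgeR 4.0.16 and DESeq2 1.42.0 on recovered reads, other pseudocounts, filters and scalings, a replicate block and leaving out each library. The fits were also run on simulated counts, in which no library was set apart from its group. The outcome is not given here, and it does not bear on how the calls depend on mop1 replicate 3. After subtraction of group means, libraries sharing a number correlated at 0.15, 0.25 and 0.49 over 23150 genes, so the numbers were taken as pairs in the blocked fit. This pairing comes from the data alone, and mop1 replicate 1 correlated more with WT replicate 2, at 0.33, than with WT replicate 1.

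Members, gene lists and tests were chosen with earlier results of these data known. Genes given by ID are the 2 with the largest ratio in mop1 replicate 3, and the 2 lower in mop1 with the lowest p in replicates 1 and 2. Since no names were matched, marker lists were not used, and the planned rule for named genes with symbols did not apply.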

Additional observations from a re-analysis of the deposited data

How the results depend on the processing

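The number of genes chosen depended on the limits of the rule. It was 877 with mop1 replicate 3 at 1.5 times or more, 29 at 3 times or more, 53 with WT replicate 3 at 1.5 times or more, 322 at a mean of at least 10 and 95 at a mean of at least 500, the cause being the limits themselves. TMM gave 147 genes, all among the 178, and quantile normalization 173, with 156 among them. Leaving out 1 of the 4 libraries numbered 1 and 2 gave 202 to 328 genes, with 300 without mop1 replicate 2 and 328 without WT replicate 1; without a library numbered 3 the rule could not be applied.

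For mop1 against WT in replicates 1 and 2, the 141 calls over all genes became 1328 with DESeq2, 80 with edgeR and 402 with no filter, and 10 to 559 on leaving out 1 library. A lone library is then assumed to vary like the others. Calls among the 178 were 5 with DESeq2 and 0 to 1 on leaving out 1 library. The replicate block gave 133 calls in all, 95 of them among the 141, with 0 of the 178; it changed no call of a gene given by ID. The median difference of the 178 genes ranged from -0.13 to 0.02 on leaving out 1 library. That of Zm00001eb313660 ranged from -0.55 to 0.25, changing sign without mop1 replicate 1 or WT replicate 1. With all 6 libraries the 5 calls became 445 with DESeq2, 3 with edgeR, 8 with TMM or pseudocount 5, 10 with no filter, 1 at a mean of at least 50, 5 with the replicate block and 0 to 208 on leaving out 1 library. Apart from fewer libraries or other genes entering a fit, the cause was not tested.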

Other observations

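A further 40 genes with a mean of at least 100 met the condition on mop1 replicate 3 without WT replicate 3 lying above the highest of the 4 libraries numbered 1 and 2. At these genes mop1 replicate 2 was the highest of the 4 at 20, and WT replicate 2 the lowest at 23. Their median coefficient of variation over the 4 libraries was 31.1%, against 18.4% at the 178 genes. These values are a description, with no test.

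The 2 genes removed with the omitted range of IDs otherwise met the rule. One had 87.7, 71.1 and 179 normalized counts in the mop1 libraries and 70.6, 66.0 and 152 in the WT libraries. The other had 289, 258 and 754, and 319, 261 and 530. In both genes, each library numbered 3 stood above all the others, which the rule requires. They were chosen for mention after their values were seen.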
